A study of Mus musculus with 2 samples.

Results

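The genes described here are the ligands, receptors, secreted inhibitors and intracellular effectors of Wnt signalling in sorted medullary thymic epithelial cells (mTEC) of the mouse. They were chosen by symbol, with earlier results of these data known. The set holds each gene with its own probe set whose symbol starts with Wnt or Fzd and a digit, Sfrp, Dkk or Rspo. It also holds a fixed list of co-receptors, LGR receptors, ubiquitin ligases, Kremen genes, destruction complex genes and TCF/LEF factors. This gave 60 genes of the 19937 named in the table. Tcf7, the 1 gene of the fixed list without a value, was not analysed here. Dkkl1, a Dickkopf-like gene that is no Dickkopf inhibitor, and Fzd10os, a long non-coding RNA named after the neighbouring Fzd10, entered by the spelling of their symbols and are kept apart below.

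Gene expression was measured on 2 whole-transcript microarrays, 1 for each genotype. Both samples came from B6 mice aged 6 weeks with floxed Hdac3 alleles, HDAC3fl/fl, which the labels call WT when no Cre is present. The other group, HDAC3fl/fl Foxn1-Cre or HDAC3cKO, also carried Cre under the control of Foxn1, a gene of thymic epithelium, so that deletion is directed to all epithelial cells of the thymus and not to the medulla alone. HDAC3 is a histone deacetylase of the NCoR and SMRT corepressor complexes. The cells were sorted as EpCAM+, CD45-, Ly51low and MHC-II low (mTEClo), about 30000 of them per RNA extraction, and for HDAC3cKO 10 to 30 mice were typically pooled. The sources used here do not say whether the WT sample was pooled.

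With 1 array per genotype there is no replicate error, no test and no p-value, and the number of arrays limits the precision. Differences are log2 intensities of the HDAC3cKO-labelled array minus those of the WT-labelled array, and "higher" and "lower" speak of these 2 arrays only. The deposited intensities ran from 10.8 to 29745 on the WT-labelled array and between 11.5 and 29465 on its HDAC3cKO-labelled counterpart, and the median difference over all named genes was 0.01. The log2 level of Hdac3 itself was 10.90 on the WT-labelled array and 11.64 on the HDAC3cKO-labelled one, so its probe set was not lower where the label says it was deleted. The sources used here do not name the exons flanked by the loxP sites, and every direction below rests on the labels. The epithelial sort marker Epcam was at 11.33 and 11.06 and Krt5, a keratin of medullary epithelium, at 12.93 and 13.33. Another keratin, Krt14, differed by -1.36. Of 18 markers of thymic epithelium, 3 (16.7%) were at least 2-fold higher and 4 (22.2%) lower, against 2.97% and 5.88% of all named genes. Psmb11 at 1.54 and Pax1 at 1.25 were the highest of that list, and Fezf2 at -2.97 and Cldn3 at -1.39 the lowest. Enpep, which encodes Ly51, was at 6.996 and 7.38, while Ptprc, which encodes CD45, was at 9.63 and 8.79 although CD45-positive cells were gated out. Foxn1, the master regulator of thymic epithelium, differed by 0.13. Markers of differentiated mTEC subsets moved between the arrays, with a median difference of -3.60 for tuft cell markers and -3.11 for cornified markers. Markers of other cells moved as well. Their medians were -0.90 for macrophage and dendritic cell markers, -0.25 for thymocyte markers, 0.99 for endothelial markers, 0.65 for fibroblast markers and 2.06 for mesothelial markers. Pericyte and smooth muscle markers, with a median of -0.17, lay on both sides of 0, from -1.67 in Des to 0.98 in Mcam.

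Wnt proteins are secreted, lipid-modified ligands that bind Frizzled receptors together with the co-receptors LRP5 and LRP6. In the absence of a signal, a destruction complex built on Axin and APC marks beta-catenin for degradation, and with a signal beta-catenin accumulates and joins TCF/LEF factors on DNA. R-spondins strengthen the signal by removing the ubiquitin ligases RNF43 and ZNRF3, which otherwise clear Frizzled from the membrane. In the thymus, Wnt ligands from epithelium and stroma act on epithelial cells, where they influence Foxn1 expression, and on thymocytes.

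Of the genes past the 2-fold threshold that belong to the pathway, 4 had a start site in the RefSeq promoter table of GRCm38.p6, and the 250 bases before those starts are shown because these genes are among those with the largest differences reported below. They are written 5′ to 3′ on the strand of the gene, with each CG dinucleotide in capitals.
Wnt2b, chr3:104961710-104961959, minus strand: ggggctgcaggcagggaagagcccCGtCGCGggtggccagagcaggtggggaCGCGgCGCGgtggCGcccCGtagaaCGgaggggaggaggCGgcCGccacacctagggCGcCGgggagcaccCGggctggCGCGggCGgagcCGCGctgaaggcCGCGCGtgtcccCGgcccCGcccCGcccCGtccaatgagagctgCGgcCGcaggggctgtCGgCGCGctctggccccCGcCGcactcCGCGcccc
Rspo1, chr4:124986180-124986429, plus strand: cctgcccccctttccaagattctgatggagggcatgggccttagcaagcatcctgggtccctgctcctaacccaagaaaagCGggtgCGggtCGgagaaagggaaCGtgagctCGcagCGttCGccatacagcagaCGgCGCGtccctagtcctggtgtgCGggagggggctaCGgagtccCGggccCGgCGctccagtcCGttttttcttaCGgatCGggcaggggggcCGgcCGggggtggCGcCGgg
Fzd7, chr1:59481897-59482146, plus strand: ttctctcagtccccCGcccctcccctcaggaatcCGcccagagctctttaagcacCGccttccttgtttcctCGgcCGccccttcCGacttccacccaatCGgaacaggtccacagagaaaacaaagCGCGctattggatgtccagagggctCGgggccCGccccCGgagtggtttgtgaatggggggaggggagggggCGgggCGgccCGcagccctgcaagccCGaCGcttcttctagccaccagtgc
Kremen2, chr17:23745830-23746079, minus strand: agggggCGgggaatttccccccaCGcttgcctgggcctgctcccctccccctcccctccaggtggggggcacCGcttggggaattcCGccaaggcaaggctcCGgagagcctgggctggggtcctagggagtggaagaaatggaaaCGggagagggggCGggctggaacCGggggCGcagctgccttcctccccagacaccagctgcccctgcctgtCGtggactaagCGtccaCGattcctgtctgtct
The Wnt2b stretch held 36 CG dinucleotides and was 80.8% G or C, the Rspo1 stretch held 22, the Fzd7 stretch 17 and the Kremen2 stretch 12. The stretches of the 3 genes with a higher value thus held 17 to 36, and that of the gene with a lower value 12. These are too few genes to compare. Of the 60 genes, 38 matched the table, with 47 start sites in all. Over the whole window of 300 bases (250 before and 50 after a start), their promoters held a median of 24 CG dinucleotides, against 13 for 21262 promoters of protein-coding genes and 7 for all 32851 promoters.

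Promoters were also searched on both strands for the letters CTTTGAT and CTTTGAA, the core recognised by TCF/LEF factors. None of the printed stretches above held either. They occurred in 3 of the 47 windows of these genes, or 6.38%, against 7.57% of the promoters of protein-coding genes and 8.65% of all promoters. The 3 stretches of 30 bases follow, with the matching letters in capitals. The match in Wnt11 lies on the opposite strand and reads ATCAAAG here.
Wnt5b, chr6:119449439-119449468, minus strand: agtaagtctctCTTTGATctgctccctgtc
Wnt11, chr7:98835050-98835079, plus strand: gacgtgggcggATCAAAGcgacggtccgcg
Dkk1, chr19:30549595-30549624, minus strand: tcctcccaaagCTTTGAAatcccatcccgg
The matches began 71, 51 and 117 bases before the start in that order. The log2 differences of the 3 genes were -0.24 for Wnt5b, -0.49 for Wnt11 and -0.28 for Dkk1, all under 2-fold. A match describes letters in a window and shows no binding.

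Over the whole set, 5 of the 60 genes (8.33%) were at least 2-fold higher on the HDAC3cKO-labelled array, against 2.97% of all named genes, and 2 (3.33%) were at least 2-fold lower, against 5.88% of all named genes. The genes that were higher were Wnt2b, Fzd3, Fzd7, Rspo1 and Znrf3, and those that were lower were Kremen2 and Dkkl1. The other 53 differed by less than 2-fold. At a threshold of 1.5-fold, 13 genes (21.7%) were higher, against 8.33% of all named genes, and 5 (8.33%) lower, against 11.2%. At 3-fold, Wnt2b was the 1 gene that was higher, against 0.757% of all named genes, and none was lower, against 2.88%. Of the 28 genes in the set with an average level no lower than the median of all genes, 4 were at least 2-fold higher and 1 lower, where the shares of all 9969 genes at such levels were 4.54% and 6.75%; a gene can pass this limit through the array on which it is high, so nothing is read from these counts. The median difference of the 60 genes was 0.14, and 38 of them (63.3%) lay above 0, against 51.0% of all named genes. After each array was centred on its own median the count of genes at least 2-fold higher was 8, because Fzd4, Tcf7l2 and Sfrp4 then passed the threshold; over all named genes the same centring moved the count from 593 to 676.

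**Figure D1:**
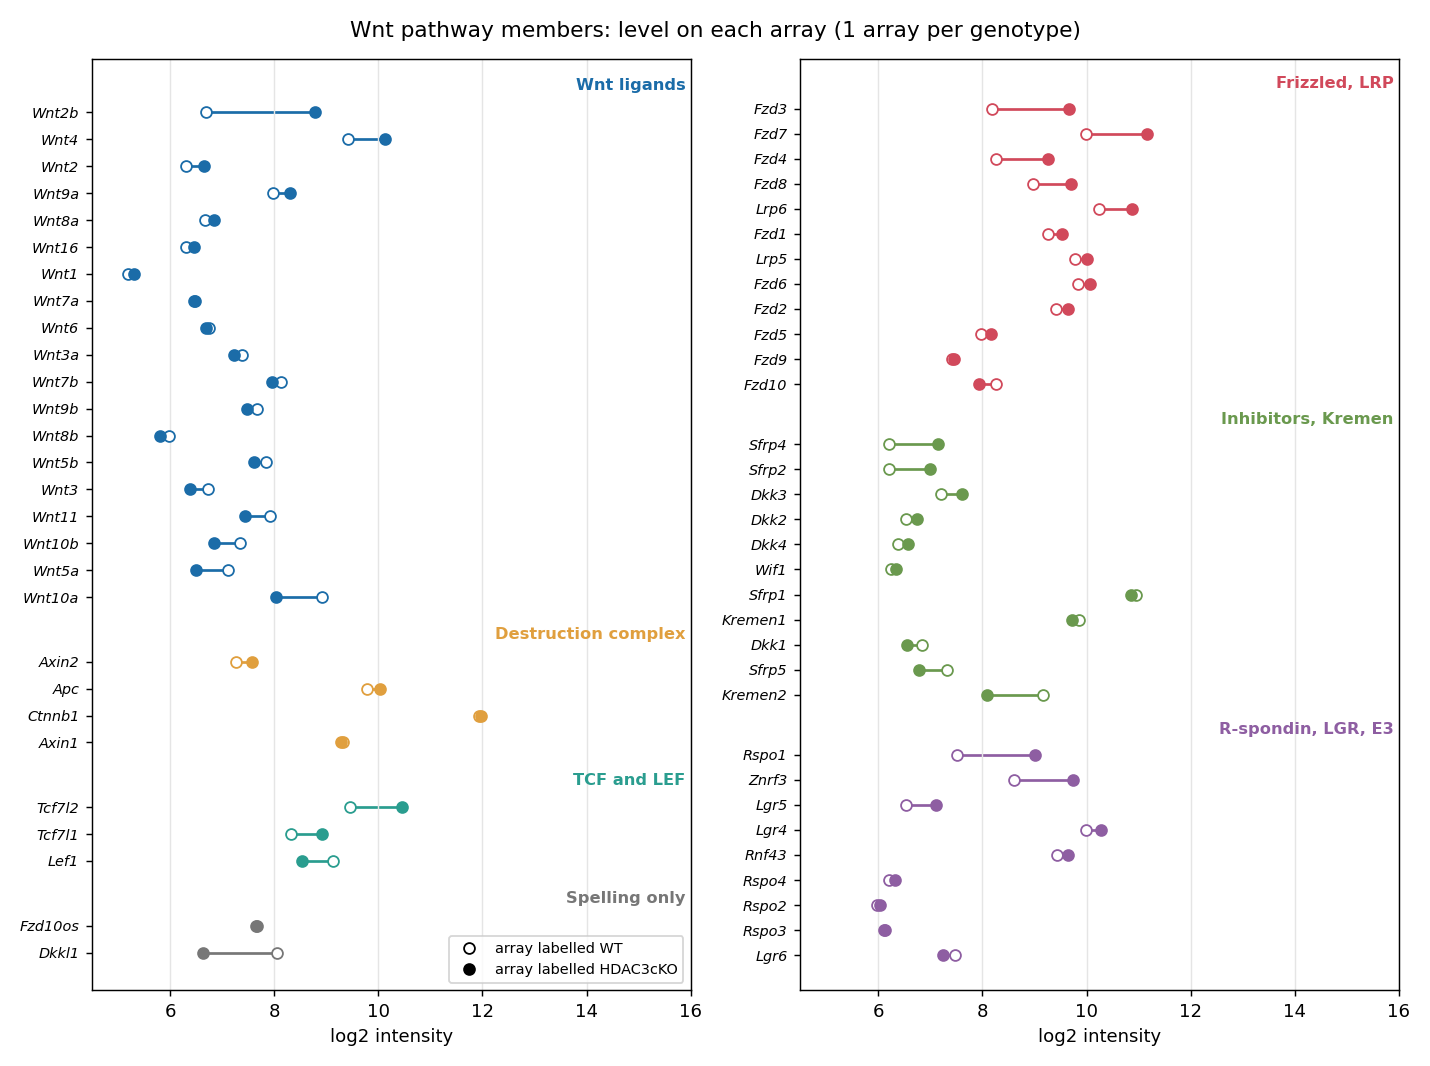
Log2 intensity of each of the 60 genes on the WT-labelled array (open circles) and the HDAC3cKO-labelled array (filled circles), grouped by role and ordered by difference, with a line joining the pair. Wnt2b has the longest line to the right and Dkkl1 the longest to the left; positions on the axis are not comparable between genes, since probe sets differ in response.

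Of the 19 Wnt ligands, 1 (5.26%) passed 2-fold upward and none downward, against 2.97% and 5.88% of all named genes. Above 0 lay 7 (36.8%), where 51.0% of all named genes did, and 12 lay below. Their median difference was -0.16. Wnt7a, at -0.02, was the ligand whose sign turned under median centring and loess. Wnt2b, a ligand that signals through beta-catenin, had an intensity of 104.0 on the WT-labelled array and 439.1 on the HDAC3cKO-labelled array. On the log2 scale these are 6.70 and 8.78, a difference of 2.08 or 4.22-fold, the largest of the 60 genes. It kept a difference above 1 under the 3 other scalings, with a range of 2.08 to 2.13. In RNA from a pool of cells, more cells of a type and more RNA per cell cannot be told apart, here and in every result below. Mesothelial markers were higher on the same array: 5 of 7 were at least 2-fold higher, led by Upk3b at 3.04 and Lrrn4 at 2.70, while Msln differed by -0.41 and Krt19 by 0.21. Their summed intensity was 6422 on the WT-labelled array and 12160 on the HDAC3cKO-labelled array, and none was at 0 on either array. The part of these cells in the Wnt2b value was not tested.

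Wnt4, the epithelial ligand best known for regulating Foxn1 in the thymus, had 2 probe sets. The one with the higher mean was at 9.41 on the WT-labelled array and 10.13 on the HDAC3cKO-labelled array, a difference of 0.72 or 1.65-fold. The second probe set differed by 0.85, so both pointed the same way and both stayed under 2-fold. Wnt10a, a ligand of ectodermal appendages, had the lowest difference of the family, at 8.92 and 8.03, a difference of -0.89 or 1.86-fold. Wnt5a and Wnt5b, ligands that mostly act without beta-catenin, differed by -0.62 and -0.24. Wnt10b and Wnt11 differed by -0.50 and -0.49. The other 12 ligands differed by between -0.35, in Wnt3, and 0.36, in Wnt2. Ligand levels were mostly in the low part of the table: 4 of the 19, Wnt4, Wnt10a, Wnt7b and Wnt9a, had a mean at or above 8.03, the median over all genes. The table has no detection calls, so a low value cannot be read as absence, and a difference near background is understated.

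Several Wnt genes sit beside each other in the genome, and the neighbours differed in size. Wnt10a and its neighbour Wnt6 differed by -0.89 and -0.05. Wnt10b and its neighbour Wnt1 differed by -0.50 and 0.11. For Wnt3 and Wnt9b the differences were -0.35 and -0.18, and for Wnt3a and Wnt9a -0.16 and 0.33. Outside the ligands, Kremen1 and Znrf3 are neighbouring protein-coding genes, at -0.13 and 1.14. A large difference in 1 gene of a pair was thus not shared by the other.

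The receptors were the group with the most members above 0. Of the 10 Frizzled genes and 2 LRP co-receptors, 11 lay above 0, where 51.0% of all named genes did. Of the 12, 2 passed 2-fold upward and none downward, against 2.97% and 5.88% of all named genes. Their median difference was 0.25. The signs of all 12 were the same under median centring, quantile normalization and a loess curve. Fzd3, a receptor prominent in planar polarity and axon guidance, had an intensity of 291.5 on the WT-labelled array and 806.1 on the HDAC3cKO-labelled array, a difference of 1.47 or 2.77-fold. Fzd7, a receptor of epithelial progenitors in several tissues, had intensities of 1019 and 2283, a difference of 1.16 or 2.24-fold. Both passed 2-fold under each of the 3 scalings. The endothelial, fibroblast and mesothelial markers given in the paragraphs on Wnt2b, Fzd4 and the Frizzled-related proteins were higher on the same array, and their part in the Fzd3 and Fzd7 values was not tested.

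Fzd4, which also serves the ligand norrin in blood vessels, lay just under the threshold, with log2 levels of 8.26 and 9.26 and a 1.995-fold difference. It passed 2-fold after median centring, at 1.05, and after quantile normalization, at 1.01, but not after loess, at 0.96, or with the pseudocount of 32, at 0.93. Endothelial markers were higher on the same array, 7 of 15 by at least 2-fold, with all 15 above 0, and their summed intensity was 10614 on the WT-labelled array and 21659 on the HDAC3cKO-labelled array. None of these markers was at 0, Emcn was the highest at 2.20 and Kdr followed at 1.34. Within this EpCAM+ sort, Emcn was at 9.17 on the WT-labelled array and 11.37 on the HDAC3cKO-labelled array. The part of endothelial cells in the Fzd4 value was not tested.

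Fzd8 differed by 0.74, from 8.96 to 9.70. The co-receptor gene Lrp6 was at 10.24 and 10.88, a difference of 0.64 or 1.55-fold, while Lrp5 differed by 0.23. Fzd1, Fzd2, Fzd5 and Fzd6 stayed within a narrow band of 0.20 to 0.27, among them Fzd6, a receptor of planar polarity in skin, at 0.23. Fzd9 differed by 0.03. Fzd10 was the 1 receptor below 0, at 8.26 and 7.94, a difference of -0.31, and the non-coding Fzd10os differed by 0.02.

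**Figure D2:**
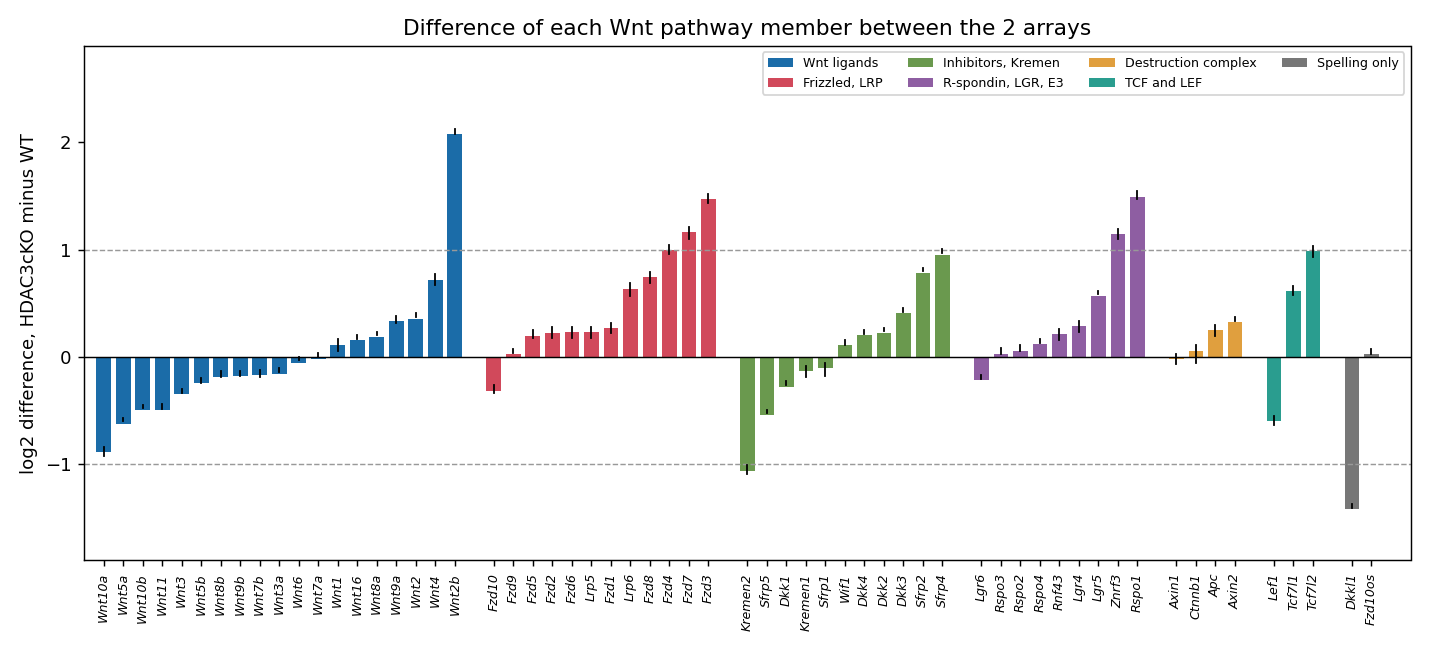
Log2 difference of each gene (HDAC3cKO-labelled array minus WT-labelled array) as bars by role, with dashed lines at 2-fold; the thin vertical lines span the values under median centring, quantile normalization and a loess curve, and are no error bars. The receptor bars lie above 0 except for Fzd10 at -0.31, whereas ligands and inhibitors lie on both sides.

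The secreted inhibitors and the Kremen genes went both ways. Of 11 genes, 6 (54.5%) lay above 0, against 51.0% of all named genes, and 5 below, with a median difference of 0.11. None passed 2-fold upward, against 2.97% of all named genes, and 1 (9.09%) passed downward, against 5.88%. That gene was Kremen2, a Dickkopf receptor that takes part in removing LRP6 from the membrane, with intensities of 569.7 on the WT-labelled array and 273.1 on the HDAC3cKO-labelled array, a difference of -1.06 or 2.09-fold. With 32 added to each intensity before the logarithm, the difference of Kremen2 was -0.98 and no longer passed. Tuft and cornified markers, which label differentiated subsets of mTEC, were lower on the same array, all 11 and all 9 of them by at least 2-fold. Their summed intensities were 39401 and 18176 on the WT-labelled array and 2889 and 2486 on the HDAC3cKO-labelled array, with none at 0, and their part in the values of Kremen2 and Wnt10a was not tested. The relative of Kremen2, Kremen1, which has been studied in thymic epithelium, was at 9.85 and 9.72, a difference of -0.13.

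Among the secreted Frizzled-related proteins, which bind Wnt ligands outside the cell, Sfrp4 was at 6.20 on the WT-labelled array and 7.15 on the HDAC3cKO-labelled array, a difference of 0.95. Sfrp2 was at 6.21 and 6.99, a difference of 0.78. Sfrp5 differed by -0.55, and Sfrp1 was at 10.96 and 10.85, a difference of -0.11. The family thus held members on both sides, none of them 2-fold apart. Fibroblast markers were higher on the HDAC3cKO-labelled array, 4 of 13 by at least 2-fold and 10 of 13 above 0, led by Mfap5 at 2.40 and Dcn at 1.45, with a summed intensity of 9242 on the WT-labelled array and 18110 on the HDAC3cKO-labelled array and none at 0. At the other end of that list were Postn at -0.78 and Pdgfra at -0.52. Dcn had the highest level of the fibroblast markers on both arrays and so made up the largest part of their sum. Within the EpCAM+ sort, Dcn was at 11.84 on the WT-labelled array and 13.29 on the HDAC3cKO-labelled array. The part of fibroblasts in the Sfrp2 and Sfrp4 values was not tested. Among the Dickkopf genes, whose products Dkk1, Dkk2 and Dkk4 bind LRP co-receptors, differences ran from -0.28 in Dkk1 to 0.40 in Dkk3, a divergent member. Wif1, which binds Wnt ligands directly, differed by 0.11.

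The R-spondin branch held 2 of the 5 genes that were at least 2-fold higher. Of its 9 genes, 2 (22.2%) passed 2-fold upward and none downward, against 2.97% and 5.88% of all named genes. Above 0 lay 8 of the 9, where 51.0% of all named genes did, and the median difference was 0.21. Rspo1, a ligand of the LGR receptors, had an intensity of 183.1 on the WT-labelled array and 516.3 on the HDAC3cKO-labelled array, a difference of 1.495 or 2.82-fold. The other R-spondins stayed at low values on both arrays, with differences of 0.06 for Rspo2, 0.03 for Rspo3 and 0.12 for Rspo4. Rspo1 was thus the 1 R-spondin past 2-fold, on the same array as the higher mesothelial markers described beside Wnt2b, whose part in the Rspo1 value was not tested.

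Znrf3, 1 of the 2 ubiquitin ligases that R-spondins act on and itself a target of beta-catenin, had intensities of 388.8 on the WT-labelled array and 859.4 on the HDAC3cKO-labelled array, a difference of 1.14 or 2.21-fold. Its partner Rnf43 was at 9.43 and 9.64, a difference of 0.21. The receptors Lgr4, Lgr5 and Lgr6 differed by 0.29, 0.57 and -0.22. Of the 3, Lgr4 was at 9.98 and 10.27, and Lgr5, known as a stem cell marker in gut and hair follicle, was at 6.54 and 7.11.

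Inside the cell, the destruction complex was nearly level between the arrays. Ctnnb1, which encodes beta-catenin, was at 11.92 on the WT-labelled array and 11.98 on the HDAC3cKO-labelled array, a difference of 0.06 whose sign turned under quantile normalization and loess. Axin1 differed by -0.02, with a sign that turned under median centring, and Apc by 0.25. Axin2, the scaffold gene most widely used as a readout of beta-catenin signalling, was at 7.26 and 7.58, a difference of 0.32. Transcript levels carry no direct information on the amount or location of beta-catenin protein.

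The TCF/LEF factors differed in direction. Tcf7l2 was at 9.46 on the WT-labelled array and 10.45 on the HDAC3cKO-labelled array, a difference of 0.99 or 1.98-fold, just under the threshold. The difference of Tcf7l2 was just above it after median centring, at 1.04, and below it after quantile normalization, at 0.97, and loess, at 0.93. Tcf7l1, a mainly repressive member of the family, was at 8.31 and 8.93, a difference of 0.61. Lef1, which is active in thymocytes as well as in skin epithelium, was at 9.13 and 8.53, a difference of -0.60 or 1.52-fold. Thymocyte markers lay below 0 in 14 of 17 cases on the same array, 1 of them, Cd4 at -1.26, by at least 2-fold, followed by Cd8a at -0.98. Cd3g at 0.11 and Cd3d at 0.10 were the highest of that list. Their summed intensity was 7340 on the WT-labelled array and 5252 on the HDAC3cKO-labelled array, and none was at 0. Within the EpCAM+ CD45- sort, Cd4 was at 9.40 on the WT-labelled array and 8.14 on the HDAC3cKO-labelled array. The part of thymocytes in the Lef1 value was not tested.

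Dkkl1, which matched by spelling, was at 8.05 on the WT-labelled array and 6.62 on the HDAC3cKO-labelled array, a difference of -1.42 or 2.68-fold. Without it, 1 gene of 59 (1.69%) was at least 2-fold lower, and the median of the set was 0.16.

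Genes of the pathway outside this set, taken from lists of known components, were compared in the same way. These lists, and that of the beta-catenin targets below, were chosen with earlier results of these data known. Of 75 such genes, 7 (9.33%) passed 2-fold upward and 2 (2.67%) downward, against the 2.97% and 5.88% of all named genes given above, with a median difference of -0.01. Of 16 genes of Wnt secretion and extracellular modulation, 4 (25%) passed 2-fold upward and none downward, against the same 2.97% and 5.88%. They were the glypicans Gpc3 at 1.37 and Gpc6 at 1.02, which carry heparan sulphate chains that bind growth factors and Wnt ligands, the membrane-bound Wnt inhibitor Apcdd1 at 1.28, and Igfbp4 at 1.07, a binding protein of insulin-like growth factors that can also antagonise Wnt. The calls of Gpc6, at 0.97, and Igfbp4, at 0.98, ended after loess, that of Igfbp4 also after quantile normalization, and that of Gpc6 also with the pseudocount of 32. Wls, the carrier needed for Wnt secretion, was at 10.30 on the WT-labelled array and 11.13 on the HDAC3cKO-labelled array, a difference of 0.83, and Porcn, the enzyme that attaches the lipid, by -0.22.

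Of 17 other receptors and planar polarity genes, 2 (11.8%) passed 2-fold upward and 1 (5.88%) downward, against 2.97% and 5.88% of all named genes. Ror2 and Ror1, receptor tyrosine kinases that bind Wnt5a, differed by 1.56 and 1.21, so that the receptors were higher on the array on which Wnt5a itself differed by -0.62. Celsr1, an atypical cadherin of planar polarity, was at 10.61 and 9.28, a difference of -1.33. Of 24 Dishevelled, kinase and destruction complex genes, 23 differed by less than 2-fold, between -0.27 in Btrc and 0.50 in Tnks2, and Dact2, a Dishevelled-binding antagonist, was higher by 1.52. Of 18 nuclear cofactors, 17 differed by less than 2-fold, and Nlk, a kinase that phosphorylates TCF/LEF factors, was lower, with a difference of -1.57. Dact2 alone is 4.17% of its list, against 2.97% of all named genes higher. Nlk alone is 5.56% of its list, against 5.88% lower.

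Transcripts known to respond to beta-catenin lay on both sides of 0, with 16 (69.6%) above it, against 51.0% of all named genes. Of 23 general targets outside the set, 3 (13.0%) passed 2-fold upward and 1 (4.35%) downward, against 2.97% and 5.88% of all named genes, and the median difference was 0.15. The higher genes were Bmp4, a bone morphogenetic protein, at 1.34, Apcdd1 at 1.28 and Met, the receptor of hepatocyte growth factor, at 1.21. The lower gene was Ascl2, a transcription factor of intestinal stem cells, at -1.32. With 32 added to each intensity Ascl2 was at -0.99 and no longer passed. Values of feedback genes ranged widely, with Znrf3 at 1.14, Lgr5 at 0.57, Axin2 at 0.32, Notum at 0.30, Rnf43 at 0.21, Sp5 at 0.15, Nkd1 at 0.11, Dkk1 at -0.28 and Lef1 at -0.60. Of these, Lgr5, Axin2, Notum, Sp5 and Dkk1 had means below 8.03, the median over all genes, so their differences may be understated. Apcdd1, Notum and Nkd1 also stand in the pathway lists.

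**Figure D3:**
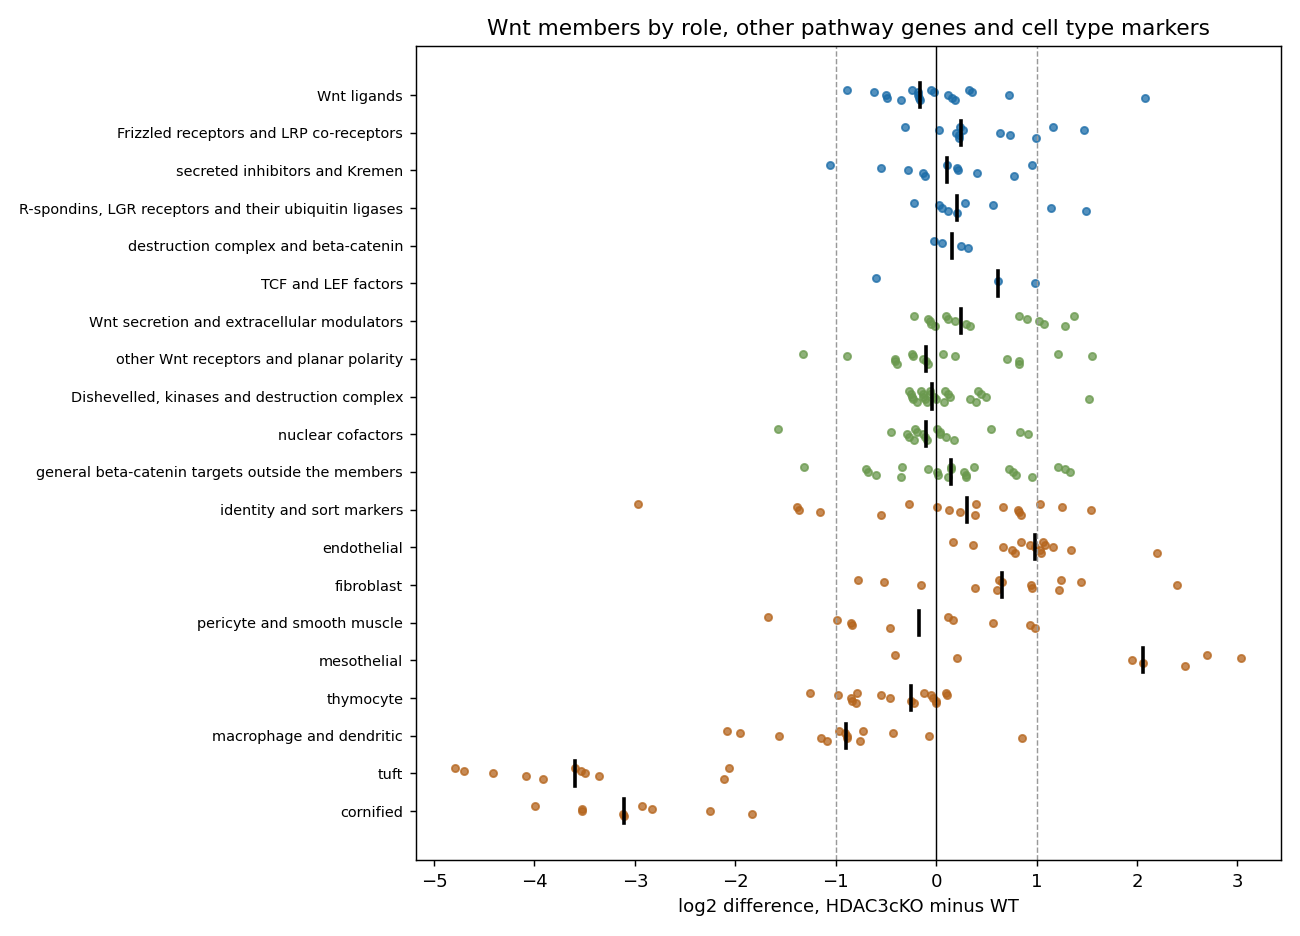
Log2 difference of every measured gene (points) in the role groups (blue), the other pathway and target lists (green) and the cell type lists (brown), with black bars at the medians and dashed lines at 2-fold. The role groups have medians between -0.16 for ligands and 0.61 for TCF/LEF factors, inside the span of the marker lists, which runs from -3.60 for tuft cells to 2.06 for mesothelium.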

How the data were processed

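RNA of sorted mTEC from WT and HDAC3cKO mice was hybridised to Affymetrix Mouse Gene 1-ST arrays, 1 per genotype. The authors deposited 1 linear intensity per probe set and array, made with RMA per the submitters' processing notes; the sources used here give no version, settings or genome build. Values were log2-transformed without a pseudocount and were not rescaled. Of 34760 probe sets, 21640 had 1 gene symbol in the platform annotation, 1321 had several and were not named, and 11799 were unnamed here. The probe set with the highest mean represented each gene. All 60 member symbols matched the RefSeq gene table. With 1 array per group no test was possible, and genes were counted at 2-fold or more. Members and lists were chosen with earlier results of these data known.

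Named were Hdac3, every member past 2-fold, the extremes of each role group, a fixed set of thymic and effector members, up to 4 genes each way per pathway or target list past 2-fold, and up to 2 each way per marker list where a result touches it. Wls, Porcn, the feedback genes Notum, Sp5 and Nkd1, the range ends Btrc and Tnks2, and the neighbouring and low-level ligands were named after their values were seen. Also named outside that rule were Fzd1, Fzd2, Fzd4, Fzd5, Fzd8, Fzd9, Sfrp5, Wif1, Rspo2, Rspo4, Krt5, Krt14 and Enpep. Of the genes in the lists, 7 were not analysed here, and Aes was matched as Tle5. The alternatives were median centring, quantile normalization, a loess curve (span 0.3), averaged probe sets, a pseudocount of 32, thresholds of 1.5-fold and 3-fold, filters at the median and the 25th percentile of gene means, and leaving out Dkkl1. The calculation was tested on simulated data. Calculations ran in Python 3.11.15 with pandas 2.3.3 and numpy 2.4.6, the loess curve came from statsmodels 0.14.6, and plots from matplotlib 3.10.9.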

Additional observations from a re-analysis of the deposited data

How the results depend on the processing

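No count has a replicate check, and neither array could be left out. No paired analysis was possible because each genotype had 1 array. Background correction and array position could not be varied from 1 processed value per probe set. Genes at least 2-fold higher numbered 5 in the set, 8 after median centring, 13 at 1.5-fold and 1, Wnt2b, at 3-fold. Genes at least 2-fold lower numbered 2, and 1 with the pseudocount, with the filter at the median level, without Dkkl1, and without Dkkl1 and Fzd10os (the last chosen after seeing the data); they numbered 5 at 1.5-fold and 0 at 3-fold. Other pathway genes numbered 14 (18.7%) higher at 1.5-fold and 0 each way at 3-fold. The beta-catenin targets numbered 7 (30.4%) higher and 4 (17.4%) lower at 1.5-fold and 0 each way at 3-fold. They numbered 0 lower with the pseudocount or the filter at the median level. Of all named genes, 8.33% were higher and 11.2% lower at 1.5-fold, and 0.757% and 2.88% at 3-fold. With the filter at the median level, which 28 of the 60 genes passed, the median difference was 0.24 over the set, 0.081 for ligands, -0.13 for inhibitors and 0.72 for the R-spondin branch; with the filter at the 25th percentile it was -0.11 for inhibitors and 0.43 for the R-spondin branch. Genes such as Rspo1, Wnt7b and Wnt9a pass the median level through 1 array only, so nothing is read from these medians. Under the 3 scalings, 3 genes changed sign, Axin1, Ctnnb1 and Wnt7a, none of them above 0.06 in size, and none of the 7 genes of the set past 2-fold lost its call. Other pathway genes at least 2-fold higher numbered 7, and 6 after quantile normalization, 5 after loess and 6 with the pseudocount.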
